A study of Rattus norvegicus with 26 samples.

Results

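The adult hearts of both sexes were compared as 1 experiment, hypoxia before birth against control, with the sex series as a block. They were the 20 adult libraries of the 26 in the study, 10 of the male and 10 of the female series, and were chosen by age and treatment alone. All were hearts of Sprague Dawley rats collected at 5 months of age. In the hypoxia groups the pregnant dams had been kept at low oxygen from gestational Day 15 to Day 21, and the control groups came from dams kept in normoxia. No drug, transgene or later exposure separated the groups, so that control and hypoxia offspring shared strain, age and life after birth as far as the labels say. Each library was 1 heart, and since the litters were not named, n counts hearts and the p-values measure the spread between hearts and not between dams. The comparison asked which genes still differed in the adult heart, in the same direction in males and females, months after the exposure had ended.

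Low oxygen stabilises the hypoxia-inducible factors HIF-1α and HIF-2α, transcription factors that switch on genes of glycolysis, angiogenesis and matrix synthesis and are destroyed again when oxygen returns. A change that is still seen in the adult animal would therefore have to be carried by something other than the acute response, which is why hypoxia in the womb is studied as a case of developmental programming of heart disease. The heart is a mixture of cardiomyocytes, which hold most of its RNA, with endothelial cells of the dense capillary bed, fibroblasts, mural cells and resident immune cells. In whole heart tissue, fewer cells of a type and less RNA per cell cannot be told apart.

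Before the comparison 1 library went against its label. RNA of Y-linked genes was present in the library labelled female control 3, with Kdm5d (3.82 FPKM) and Eif2s3y (13.7 FPKM), which measured 4.51 to 6.14 and 11.4 to 14.6 FPKM in the 10 male libraries and at most 0.0215 and 0 FPKM in the other 9 of the female series. It was left out, and the comparison used 19 libraries, 9 control and 10 hypoxia, of which 4 were female controls. A second difference cut across the conditions. Of 1386 olfactory and vomeronasal receptor genes listed, which belong to sensory neurons of the nose, 381 to 1106 had a value above 0 in male control 3, 4 and 5 and male hypoxia 2, 4 and 5, against 22 to 53 in the other 14 libraries. Between hypoxia and control the number detected differed by -3.15 genes on average (adjusted p = 0.998, two-sided exact permutation test within series). Neither the number of all genes detected, 17761 to 24021 per library, nor the sum of scaled fragments passed that test. The tested value is the mean over both series, in which opposite shifts cancel. Receptor genes differed by -11.6 in males and 5.3 in females, and all genes detected by -190 and 186. On the first principal component, with 27.8% of the variance, these 6 libraries scored 27.8 to 60.9 and the other 13 of the comparison -33.9 to 2.23. None of the first 3 components passed the same exact permutation test between hypoxia and control (adjusted p = 0.967 for each). Defining cardiomyocyte genes were abundant in every library, with 10 markers summing to 28578 to 52596 FPKM, and none of the 10 had an unadjusted p under 0.05.

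No gene was called different between adult hypoxia and control hearts. Of 13183 genes with a mean of at least 1 FPKM, limma called 0 (0%) at an adjusted p under 0.3, a fold change over 1.2 and the same sign in both series. The study used the same adjusted p and fold change for differentially expressed genes, but with Cuffdiff and with adult males and females apart. Its counts are therefore not directly comparable with this one. The smallest adjusted p was 0.429, and 856 genes (6.49%) had an unadjusted p under 0.05. With the fold change over 1.2 and the same sign in both series, 241 genes (1.83%) were higher and 185 (1.4%) were lower in hypoxia at that unadjusted threshold. These genes are called nominally higher or lower here, a description of rank that did not survive the adjustment for many genes. The median standard error (SE) of a log2 fold change was 0.11. The count of 0 rested on which hearts entered, since 5 genes were called without female hypoxia 5 (Hyal1, Mcf2l, P4ha2, Ston1 and LOC103693598), 4 without male control 1 (Asph, Cfd, P4ha2 and Sh3d19) and 10 with female control 3 kept in the female series.

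The effects of the 2 series resembled each other only weakly. The log2 fold changes of males and females had a Pearson correlation of 0.123 and a Spearman correlation of 0.181 across genes, which are not independent replicates, and 7395 genes (56.1%) had the same sign in both. Of 601 genes with an unadjusted p under 0.05 in males, 63.4% had the same sign in females, and of 655 such genes in females 66.9% had the same sign in males. In both series 65 genes passed that threshold, 31 of them higher and 18 lower in both. For no gene were all hypoxia libraries of both series on 1 side of all their controls. The share of all genes apart in males or in females alone is not given here. Groups described below as apart in 1 series therefore have no such share to be compared with. The plot of the male against the female effect shows the 20 genes with the smallest p in either direction at the edge of a cloud around 0.

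**Figure D1:**
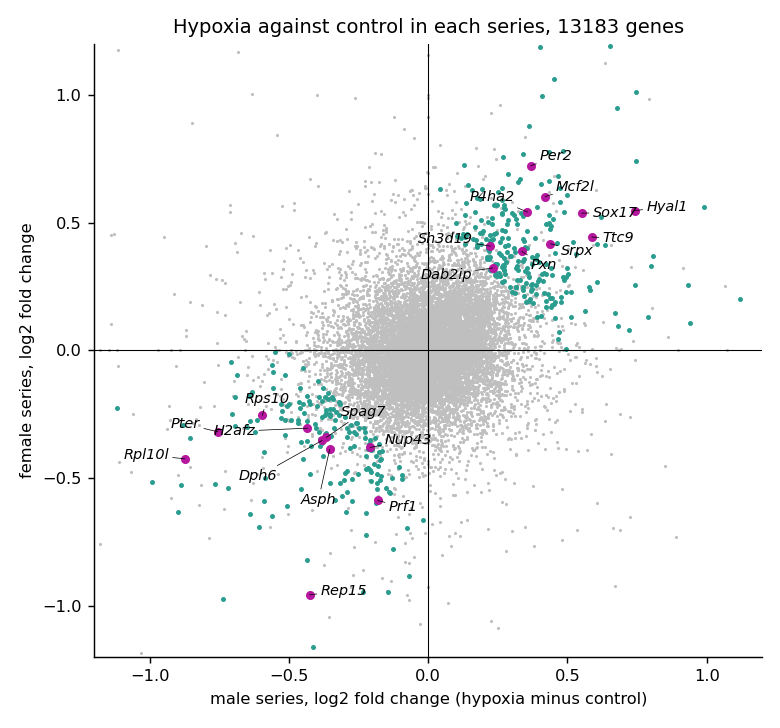
Log2 fold change of hypoxia against control in the male series (horizontal axis) and the female series (vertical axis), 1 grey point per gene, with nominally higher and lower genes in green and the 20 named genes in purple. Both axes stop at 1.2, which leaves out 115 genes, and the named genes lie along the diagonal because the same sign in both series was required of them.

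Of the genes higher in hypoxia the 10 with the smallest p are described first, leaving out symbols beginning LOC, RGD, Mir or Snor. LOC103694352, left out by that rule, was not called in the main comparison. It was called without male control 3 (log2 fold change 0.53, adjusted p = 0.173 from limma) and without male hypoxia 4 (0.53, adjusted p = 0.271 from limma). Mcf2l, which encodes a guanine nucleotide exchange factor, measured 10.02, 10.2, 11.8, 10.2 and 11.3 FPKM in male controls and 12.01, 15.1, 17.9, 15.5 and 13.3 FPKM in male hypoxia hearts. In females it was at 15.2, 8.90, 12.7 and 13.9 FPKM in control and 20.4, 24.1, 17.8, 20.97 and 14.8 FPKM in hypoxia. Male groups did not overlap, and in females only female hypoxia 5 lay within the control range. The log2 fold change over both series was 0.51 (limma SE 0.10 and adjusted p = 0.429), the smallest p of all genes, with 0.42 in males and 0.60 in females.

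P4ha2, a catalytic subunit of the prolyl 4-hydroxylase that hydroxylates collagen and a known target of HIF, stood next among named genes. It was at 6.15, 5.59, 5.09, 3.89 and 4.79 FPKM in male controls against 6.95, 5.71, 6.20, 8.72 and 6.48 FPKM in male hypoxia hearts. Female controls held 7.99, 5.43, 7.29 and 7.61 FPKM and female hypoxia hearts 9.86, 13.0, 10.9, 11.2 and 8.81 FPKM. Female groups were apart, while male hypoxia 2 lay within the control range. The difference was 0.44 on the log2 scale (limma SE 0.09 and adjusted p = 0.429). Hyal1, a lysosomal hyaluronidase that degrades the matrix polymer hyaluronan, was the reverse case with the male groups apart, at 7.18 to 11.6 FPKM in control and 15.1 to 17.3 FPKM in hypoxia. Its female groups overlapped widely, at 6.54 to 16.5 and 10.4 to 23.8 FPKM (limma log2 fold change 0.65 with SE 0.15, adjusted p = 0.434).

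The other 7 of the 10 named genes higher in hypoxia had smaller or more overlapping differences. Sox17, a transcription factor of arterial endothelium, was at 2.63 to 5.53 FPKM in male control and 5.09 to 7.76 in male hypoxia, and its log2 fold change was 0.54. Pxn, the focal adhesion adaptor paxillin, differed by 0.36, and Dab2ip, a GTPase-activating protein of Ras signalling, by 0.27 with the female groups apart (10.5 to 12.1 against 13.8 to 16.6 FPKM). Sh3d19, an adaptor with SH3 domains, differed by 0.31 on the log2 scale, Srpx by 0.43 and Ttc9 by 0.52. Per2, a repressor of the circadian clock, is described with the clock genes. For each of these 7 genes the adjusted p from limma was 0.429 to 0.435.

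**Figure D2:**
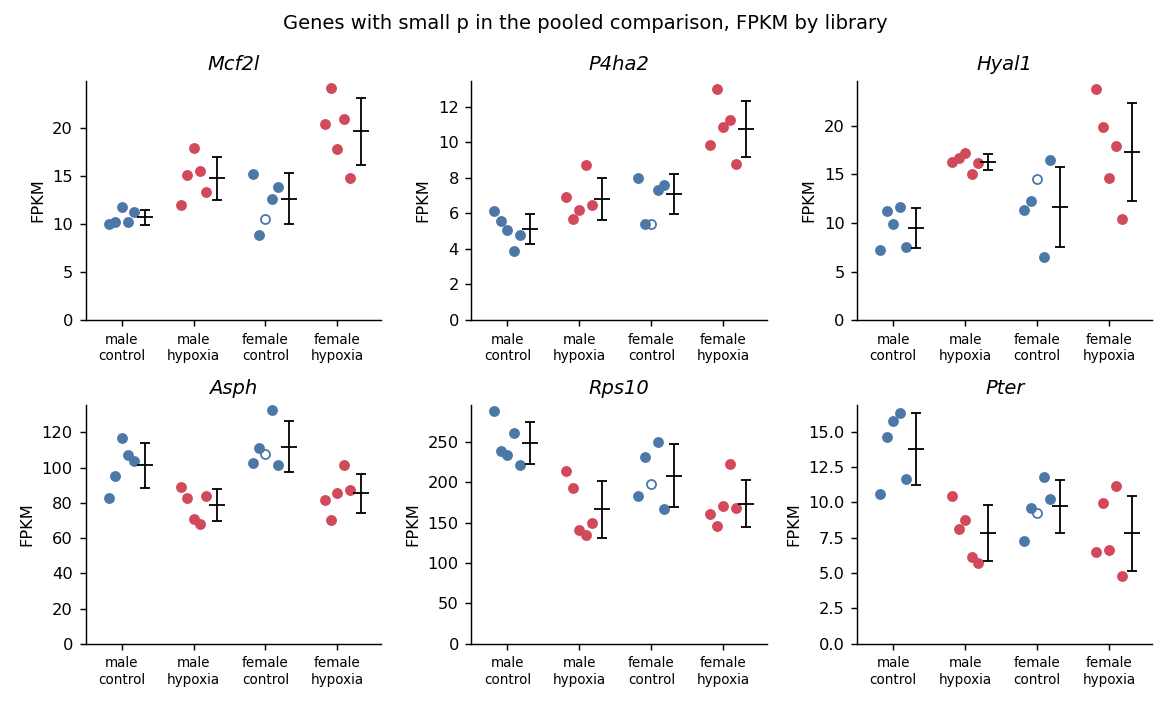
FPKM of 6 genes by library, 3 higher (upper row) and 3 lower in hypoxia (lower row), with controls in blue, hypoxia in red, bars for mean ± SD and the library left out as an open circle. Hypoxia and control did not overlap in males for Mcf2l, Hyal1, Rps10 and Pter or in females for P4ha2, and no gene was apart in both. The 6 genes come from those named by smallest p, so groups apart within a series are no separate evidence. The share of all genes apart in males or in females alone is not given here.

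Among the genes named as lower in hypoxia, Asph stood first. It encodes aspartate beta-hydroxylase and, from the same locus, the sarcoplasmic reticulum proteins junctin and junctate, which take part in calcium release. Male controls were at 82.7, 95.4, 117, 107 and 104 FPKM and male hypoxia hearts at 88.8, 83.0, 70.7, 67.9 and 84.0 FPKM. In female controls it measured 102, 111, 133 and 101 FPKM and in female hypoxia hearts 81.8, 70.4, 85.7, 102 and 87.1 FPKM. A single heart in each series kept the groups from separating, male control 1 and female hypoxia 4. The log2 fold change was -0.37 (limma SE 0.08 and adjusted p = 0.434), with -0.35 in males and -0.39 in females.

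Rep15, a partner of the small GTPase Rab15, had low levels of 0.174 to 3.85 FPKM and a log2 fold change of -0.68. Dph6, an enzyme that completes the diphthamide modification of elongation factor 2, was at 4.08 to 5.95 FPKM in male control and 2.61 to 4.02 in male hypoxia without overlap, and at 3.38 to 4.97 and 2.62 to 4.25 FPKM in females (limma log2 fold change -0.37 and adjusted p = 0.435). Prf1, the pore-forming perforin of cytotoxic lymphocytes, was at 1.31 to 2.30 FPKM in female control and 0.508 to 0.871 in female hypoxia, without overlap, against 1.35 to 2.08 and 1.16 to 1.84 FPKM in males.

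The remaining 6 of the 10 named genes lower in hypoxia were Rps10, Rpl10l, H2afz, Nup43, Spag7 and Pter. Rps10, a protein of the small ribosomal subunit, was at 221 to 288 FPKM in male control and 135 to 214 in male hypoxia, with overlapping female groups (167 to 249 and 146 to 222 FPKM) and a log2 fold change of -0.43. Rpl10l, a copy of a large-subunit gene, differed by -0.66, and reads of such near-identical copies could have been split by the counting, so that its level is uncertain. H2afz, a histone variant gene with near-identical copies of its own, differed by -0.37, Nup43 of the nuclear pore by -0.29, Spag7 by -0.35 and Pter by -0.55. Pter was apart in males only, at 10.6 to 16.3 FPKM in control and 5.69 to 10.5 in hypoxia. Adjusted p-values for these genes ran from 0.435 to 0.548 (limma).

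Markers of endothelial cells were the list with the largest median difference among those with at least 5 members tested. Of 15 markers tested, 13 had a positive log2 fold change, the same 13 had a positive one in both series, and 7 were nominally higher, where 1.83% of all genes were. The median was 0.27 (0.29 in males, 0.23 in females), against -0.00 over all genes, of which 48.5% were positive. None of the 15 was called. A higher level of this list in the male hearts was known from earlier results of these data when the list was chosen. All lists were chosen with earlier results known, so that neither the male nor the female values are independent evidence. The sum of the 15 was 311 to 431 FPKM in male control, 405 to 517 in male hypoxia, 386 to 479 in female control and 431 to 610 in female hypoxia.

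Pecam1, the platelet and endothelial adhesion molecule CD31, carried the second smallest p of the list after Sox17. Male controls held 55.6, 56.7, 63.7, 47.1 and 59.8 FPKM and male hypoxia hearts 71.2, 69.7, 99.3, 68.5 and 97.1 FPKM. In female controls it was at 78.7, 61.9, 93.4 and 90.5 FPKM and in female hypoxia hearts at 92.7, 139, 91.5, 102 and 77.9 FPKM. Males did not overlap and females did, with a log2 fold change of 0.41 (95% interval 0.17 to 0.64, adjusted p = 0.548 from limma). Mmrn2, a protein of the endothelial matrix, was at 8.98 to 11.5 FPKM in male control and 13.8 to 15.0 in male hypoxia, and at 10.1 to 12.5 and 8.35 to 21.8 FPKM in females (log2 fold change 0.38).

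Receptors of the vessel wall had unequal differences. Flt1, the VEGF receptor that also acts as a decoy, had a log2 fold change of 0.27, with 0.12 in males and 0.44 in females. Tek, the angiopoietin receptor, differed by 0.27 and its relative Tie1 by 0.25. Kdr, the main signalling receptor for VEGF, was at -0.04 and Emcn, a sialomucin of capillaries and veins, at -0.04, each positive in males and negative in females. Vwf, which carries clotting factor and is stored in endothelial granules, differed by 0.36 and the junction molecule Esam by 0.34. Cdh5, the adhesion molecule of endothelial junctions, had 0.15, the transcription factor Erg 0.14, the secreted factor Egfl7 0.33, the tight junction gene Cldn5 0.24 and the guidance receptor Robo4 0.04. The 7 nominally higher markers were Sox17, Pecam1, Mmrn2, Vwf, Esam, Flt1 and Tek.

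The number of nominally higher endothelial markers depended on the libraries. It was 3 without the 6 male libraries rich in receptor genes, with a median of 0.31, and 4 to 9 when 1 library was left out, the lowest without female control 2, female control 4, female hypoxia 1, female hypoxia 2 or male hypoxia 3. In males alone 6 and in females alone 2 were nominally higher. The libraries also differed in the balance of long and short genes, which is taken up at the end, and with that balance as a covariate 5 were nominally higher and the median was 0.17. The median was 0.18 without female control 4 and 0.24 to 0.32 without any other single library. The nominal counts under alternatives and the length covariate were added after the values of the list were seen.

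**Figure D3:**
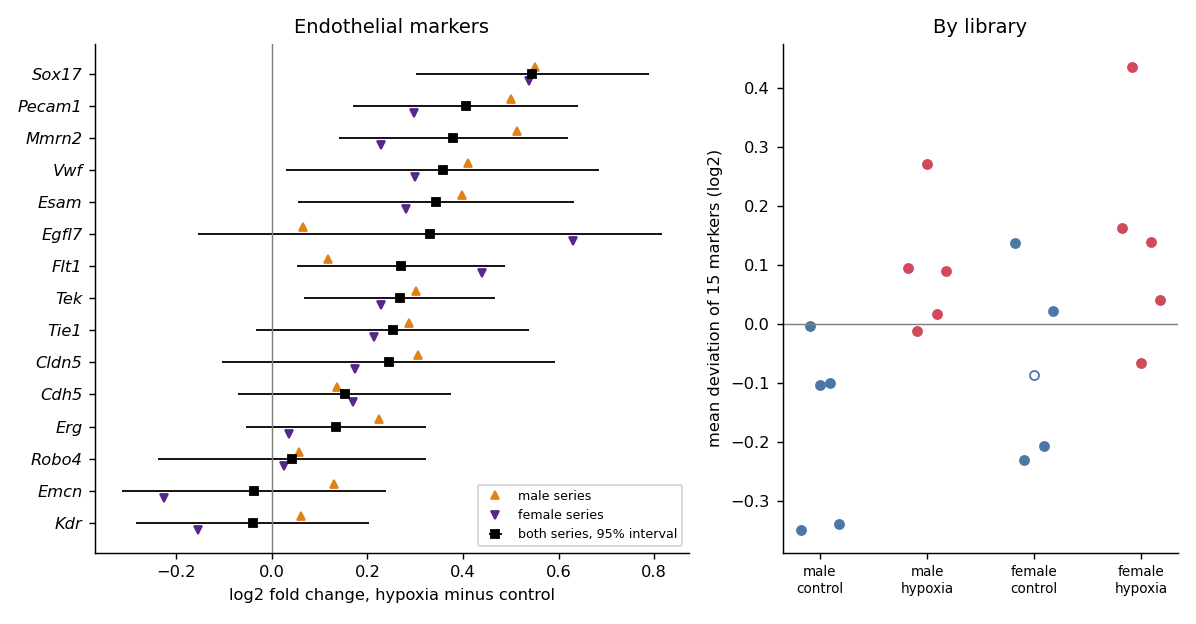
Left, log2 fold change of the 15 endothelial markers over both series (black, 95% interval from limma) and in each series; right, the mean deviation of the 15 markers from their average level in each library, with the library left out as an open circle. The medians by library group are -0.10 and 0.09 in male control and hypoxia and -0.09 and 0.14 in females, and the ranges of hypoxia and control overlap in both series.

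In the list of angiogenesis and vascular signalling 19 of 26 were positive (48.5% of all genes), with a median of 0.16, and 4 were nominally higher (1.83% of all genes) and 0 nominally lower. Flt1, Kdr, Tek and Tie1 stand in both lists (15.4% of this list, 26.7% of the endothelial one), and of the 22 other genes 16 were positive and 2 nominally higher, with a median of 0.13. Notch4, an endothelial Notch receptor, was at 3.61 to 7.18 FPKM in male control, 5.58 to 8.91 in male hypoxia, 4.37 to 7.88 in female control and 8.03 to 12.02 in female hypoxia, without overlap in females (limma log2 fold change 0.41 and adjusted p = 0.548). Ptprb, the endothelial phosphatase VE-PTP, and Aqp1, a water channel of the capillary endothelium, had log2 fold changes of 0.35 and 0.46. They were named after their values were seen, so that these values are no separate support. A single heart stood apart within its group for each. It was male hypoxia 3 for Ptprb (53.4 FPKM, others 41.8 to 43.5) and female hypoxia 2 for Aqp1 (179 FPKM, others 81.5 to 108). Lymphatic markers (3 of 6 positive) and endocardial markers (0 of 5 positive) had medians of -0.00 and -0.08 and no nominal gene. Smooth muscle and pericyte markers were positive in 10 of 12 with a median of 0.10, which was -0.01 in males and 0.26 in females. Ace, the angiotensin-converting enzyme of vessel walls, differed by 0.39.

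Promoters are shown for 2 of the nominally higher endothelial markers, Flt1 and Mmrn2, since ETS factors such as Erg are known regulators of endothelial genes and their core motif can be looked for. Of the 15 markers 9 had a promoter in the RefSeq table (GRCr8, 250 bases before to 50 after the start of the gene), and 7 of these 9 (77.8%) held AGGAAG on either strand, against 33.4% of 8725 tested genes with a promoter and 34.3% of all 27457. Of the 7 only Flt1 and Mmrn2 were nominally higher, while Egfl7, Emcn, Erg, Robo4 and Tie1 were not. Sox17, Pecam1, Vwf, Esam and Tek, also nominally higher, lacked either the motif or a promoter in the RefSeq table. The capitals mark that motif on either strand. The match describes the letters of the window only and no binding was measured.
Flt1, chr12:12333180-12333479, plus strand: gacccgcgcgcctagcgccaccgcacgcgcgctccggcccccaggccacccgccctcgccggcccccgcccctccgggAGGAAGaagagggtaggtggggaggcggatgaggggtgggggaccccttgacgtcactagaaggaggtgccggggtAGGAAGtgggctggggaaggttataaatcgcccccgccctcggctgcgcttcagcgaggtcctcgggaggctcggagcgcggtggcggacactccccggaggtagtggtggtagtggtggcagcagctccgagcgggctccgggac
Mmrn2, chr16:9711955-9712254, plus strand: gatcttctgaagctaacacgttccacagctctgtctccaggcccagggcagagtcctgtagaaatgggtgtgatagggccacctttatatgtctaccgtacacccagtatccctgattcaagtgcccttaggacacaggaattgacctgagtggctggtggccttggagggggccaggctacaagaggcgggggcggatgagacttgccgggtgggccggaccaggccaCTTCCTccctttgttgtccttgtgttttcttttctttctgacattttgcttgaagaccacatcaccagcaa

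HIF targets had a median near that of all genes. Of 24 tested, 15 were positive, where 48.5% of all genes were, and the median was 0.04. In this list 2 were nominally higher (1.83% of all genes) and 0 nominally lower (1.4% of all genes). The 2 were P4ha2 and Ndrg1, a gene of stress and differentiation, at 6.11 to 11.0 and 8.24 to 12.1 FPKM in male control and hypoxia and 5.21 to 17.4 and 8.84 to 29.8 FPKM in females (limma log2 fold change 0.50 and adjusted p = 0.704). Vegfa, the vascular growth factor, differed by 0.04 with a 95% interval of -0.25 to 0.33. Among the components of the pathway Hif1a, which encodes HIF-1α, differed by -0.06 (-0.23 to 0.12). Epas1, which encodes HIF-2α and is abundant in endothelium, differed by 0.23 (0.03 to 0.44, adjusted p = 0.712 from limma), just under the fold change asked for. The promoter of P4ha2 is shown as the target with the smallest p, with the hypoxia response cores ACGTG and GCGTG in capitals on either strand. It held 5 matches, while 12 of 18 HIF targets with a promoter (66.7%) held at least 1, close to the 61.6% of tested genes and against 42.9% of all promoters.
P4ha2, chr10:38743644-38743943, plus strand: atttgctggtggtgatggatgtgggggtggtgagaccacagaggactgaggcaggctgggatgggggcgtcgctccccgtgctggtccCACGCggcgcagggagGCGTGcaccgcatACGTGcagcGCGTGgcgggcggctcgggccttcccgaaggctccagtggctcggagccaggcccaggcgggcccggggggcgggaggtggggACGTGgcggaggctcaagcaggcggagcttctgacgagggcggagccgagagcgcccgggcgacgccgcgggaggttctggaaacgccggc

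Of 14 calcium handling genes 10 were negative (median -0.08) and 1, Asph, was nominally lower, where 1.4% of all genes were. Trdn, triadin, which anchors calsequestrin to the ryanodine receptor together with junctin, was at 68.3 to 89.6 and 67.6 to 88.3 FPKM in male control and hypoxia and at 97.4 to 119 and 71.3 to 102 FPKM in females. Its log2 fold change of -0.20 came to less than the fold change asked for (adjusted p = 0.704 from limma). Atp2a2, the calcium pump SERCA2, differed by -0.02 (95% interval -0.28 to 0.24). Of 21 sarcomere genes 14 were negative, and Tcap, telethonin of the Z-disc, was the only nominal one, higher at 0.28, while Nebl, nebulette, was at -0.20. The myosin heavy chains Myh6 and Myh7 differed by -0.04 (-0.38 to 0.30) and -0.22 (-0.58 to 0.15).

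Natriuretic peptides, which the heart releases under wall stress, had wide ranges. Nppb was at 502, 483, 386, 478 and 212 FPKM in male control and 232, 230.1, 135, 309 and 197 FPKM in male hypoxia. Female controls held 123, 121, 1028 and 215 FPKM and female hypoxia hearts 102, 31.5, 342, 188 and 47.7 FPKM. Of the male controls 4 lay above all male hypoxia hearts, while the female groups overlapped and female control 4 stood far above the rest. The log2 fold change was -1.06 (limma SE 0.42 and adjusted p = 0.685), and -0.74 without female control 4.

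Nppa, which the atria make in far larger amounts, differed by -0.76 with a 95% interval of -1.93 to 0.40. Male control 1 was at 7026 FPKM against 284 to 631 FPKM in the other male controls, and without it the log2 fold change was -0.36. The 10 atrial genes together summed to 12686 FPKM in the highest male control and 3979 FPKM in the highest male hypoxia heart, against at most 958 FPKM in a female heart of the fit, and 8 of the 10 were negative with none nominal. The median of the atrial list was -0.13 and turned to 0.16 without male control 1. The share of atrial tissue in a heart was not recorded in the sources used here, and its part in the values of Nppa and Nppb was not tested. In the list of fetal programme and cardiac stress 8 of 11 genes were negative, Nppb was nominally lower and Actn1, the non-muscle alpha-actinin, nominally higher at 0.31. Its median of -0.21 was -0.04 without male control 1, -0.10 without male hypoxia 3 and -0.13 without female hypoxia 5.

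**Figure D4:**
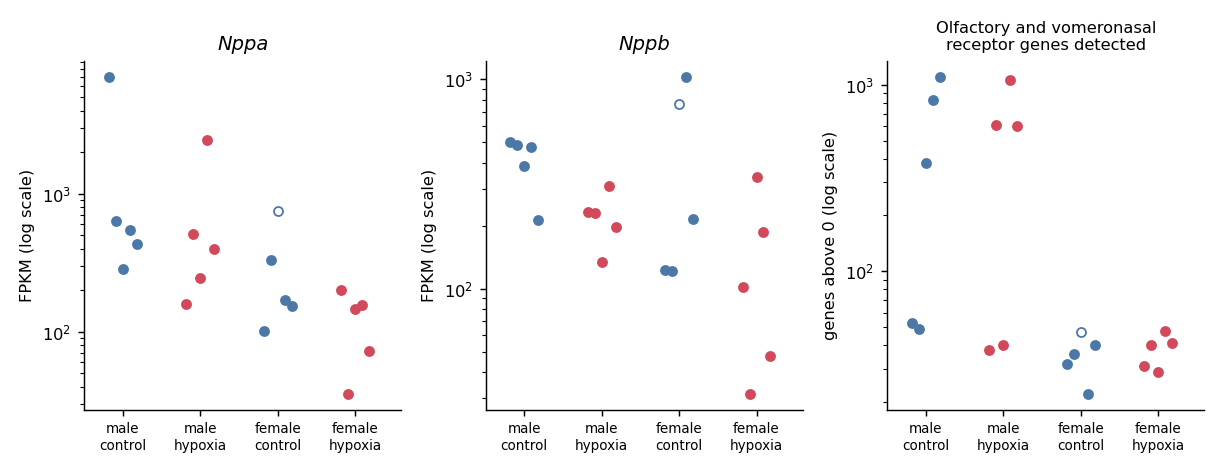
FPKM of Nppa and Nppb and how many olfactory and vomeronasal receptor genes were above 0, by library on log axes, with controls in blue, hypoxia in red and the library left out as an open circle. Male control 1 stands apart for Nppa, and the 6 male libraries rich in receptor genes are 3 controls and 3 hypoxia hearts.

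Genes of mitochondrial metabolism were mostly negative by small amounts, and the sign of the median for oxidative phosphorylation changed with the libraries used and with the length covariate. Of 37 nuclear-encoded subunits of oxidative phosphorylation 31 were negative, 21 of them in both series, with a median of -0.08 and no nominal gene. Cox7b and Cox6c, subunits of cytochrome c oxidase, differed by -0.22 and -0.32 (adjusted p = 0.8 and 0.814 from limma). The median was 0.04 with the balance of long and short genes as a covariate and 0.02 without the 6 libraries rich in receptor genes. It stayed negative when 1 library was left out, but was nearer to 0 without female control 4 (-0.05), female hypoxia 2 (-0.04) or male hypoxia 4 (-0.01). In the TCA cycle list 16 of 19 were negative with a median of -0.05, and of 22 antioxidant genes 16 were negative with a median of -0.08, which was 0.02 with that covariate. Fatty acid oxidation genes were split, with 14 of 24 negative. In this list 2 were nominally lower, where 1.4% of all genes were. They were Decr1, the dienoyl-CoA reductase (-0.29, adjusted p = 0.609 from limma), and Acaa2, a thiolase of mitochondria (-0.35, adjusted p = 0.712 from limma). Tfam, the packaging factor of mitochondrial DNA, differed by -0.29. Glycolysis enzymes had 10 of 18 positive and a median of 0.01.

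Responses to glucocorticoids and the circadian clock meet in the Per genes. Per2 was at 4.22, 4.79, 4.46, 3.79 and 6.35 FPKM in male control and 6.999, 6.96, 5.56, 5.36 and 6.83 FPKM in male hypoxia. In females it was at 7.78, 4.58, 4.57 and 3.69 FPKM in control and 8.67, 10.4, 6.88, 12.02 and 7.33 FPKM in hypoxia. A single control in each series, male control 5 and female control 1, reached into the hypoxia range (limma log2 fold change 0.54 with SE 0.12, adjusted p = 0.434). It was the only nominal gene of the 17 clock genes, of which 7 were positive with a median of -0.06, and Per1, also a target of the glucocorticoid receptor, differed by 0.31 (adjusted p = 0.788 from limma).

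Of 14 glucocorticoid response genes 11 were positive, 9 in both series, with a median of 0.15 and 1 nominally higher, where 1.83% of all genes were. The median was 0.09 without female control 2, female control 5 or female hypoxia 3 and 0.23 without female control 4. That 1 was Zbtb16, a transcription factor that glucocorticoids induce, at 18.7 to 34.4 FPKM in male control, 25.9 to 55.0 in male hypoxia, 34.6 to 79.4 in female control and 34.2 to 111 in female hypoxia (limma log2 fold change 0.53 and adjusted p = 0.712). Tsc22d3, the glucocorticoid-induced leucine zipper, differed by 0.29. No source used here gave the time of day of collection, and its part in these values was not tested. Immediate early genes, which respond within minutes to handling and stress, had 15 of 19 negative and a median of -0.16, with none nominal.

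Among immune genes the lists differed in sign. Interferon response genes were negative in 24 of 27 with a median of -0.15, but the size was unequal, -0.40 in males and -0.06 in females, and 12 of the 27 were positive in females. The median was -0.10 without male control 3 or male hypoxia 1, -0.25 without male hypoxia 4 and -0.27 without female hypoxia 3. Ifit1, an interferon-induced RNA-binding protein, was the only nominal one, at 3.66 to 10.5 FPKM in male control and 0.50 to 4.18 in male hypoxia against 1.44 to 10.4 and 1.07 to 6.83 FPKM in females (limma log2 fold change -0.82 and adjusted p = 0.725). The difference between the male and the female effect on Ifit1 had an unadjusted p of 0.0711 from limma. S100a8 and S100a9, the calprotectin subunits of neutrophils, were nominally higher at 0.91 and 0.87, with wide overlap (S100a8 at 0.857 to 5.30 FPKM in control and 0.814 to 19.8 in hypoxia). Of the neutrophil and mast cell list the other 4 tested markers were not nominal, and 1.83% of all genes were nominally higher. Macrophage markers were positive in 7 of 11 with a median of 0.21 in males and -0.08 in females, and markers of T, B and NK cells in 2 of 5. The chemokine Ccl5 differed by -0.45, with -0.07 in males and -0.88 in females.

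Matrix and fibroblast genes gave no shared direction. Fibroblast markers were positive in 4 of 11 with a median of -0.01. Of 27 genes of extracellular matrix and fibrosis 9 were positive in males and 23 in females, and none was nominal. Col4a1, a collagen of basement membranes, differed by 0.25, just under the fold change asked for, and Lox, which cross-links collagen, by 0.26 (adjusted p = 0.637 and 0.795 from limma). Wt1, a transcription factor of the epicardium that vessels also express, was nominally higher at 0.39, while the other 3 epicardial markers tested were not nominal. Cfd, the adipocyte protease adipsin, differed by 0.37, and male control 1 at 16.3 FPKM stood above the other male controls (4.58 to 7.38 FPKM). Without that heart Cfd differed by 0.52 and passed the threshold of adjusted p under 0.3 (0.286 from limma).

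Of 9 imprinted growth genes tested 6 were negative and 2 nominally lower, where 1.4% of all genes were. Plagl1, a zinc finger factor of fetal growth, was at 2.03 to 4.28 FPKM in male control, 0.934 to 2.98 in male hypoxia, 1.71 to 3.33 in female control and 1.44 to 2.58 in female hypoxia (limma log2 fold change -0.43 and adjusted p = 0.605). Cdkn1c, the cell cycle inhibitor p57, differed by -0.34 (adjusted p = 0.639 from limma). Of 20 cell cycle genes tested 12 were negative, and Cdk4, the kinase of early G1, differed by -0.21 with the female groups apart (16.4 to 17.5 against 12.002 to 16.2 FPKM). Of 24 regulators of DNA methylation and chromatin none was nominal. The maintenance methyltransferase Dnmt1 differed by 0.01 (95% interval -0.17 to 0.19) and Dnmt3a by 0.14 (-0.04 to 0.33), and Dnmt3b had a mean under 1 FPKM and was not tested. Smarca4, the ATPase of the SWI/SNF complex, was at 0.21. Bid, which carries death signals to mitochondria, was nominally higher at 0.34 among 17 genes of apoptosis and survival.

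Prkce, which encodes protein kinase C epsilon, a kinase of cardioprotection, was at 9.69 to 17.0 FPKM in male control, 9.48 to 20.4 in male hypoxia, 15.1 to 18.96 in female control and 10.9 to 21.7 in female hypoxia. The log2 fold change was 0.10 with a 95% interval of -0.19 to 0.39 (adjusted p = 0.933 from limma). That interval takes in no difference and a level over 1.2-fold higher, so these hearts do not settle whether a difference of that size exists. None of the 8 kinases of the PKC family tested was nominal, with Prkch at 0.22 and Prkcb at 0.14. Inpp1, an inositol phosphatase, differed by 0.25, Hk2, a hexokinase of muscle, by 0.09 and Bnip3, a mitophagy receptor, by 0.11, and none of the 3 was nominal. The signs were opposite in the series for Hk2 (0.25 in males, -0.08 in females) and Bnip3 (-0.002 in males, 0.23 in females). The plot of list medians has the endothelial list at its upper end and cardiac stress at its lower end, and the lower end rested on 1 heart, since without male control 1 the cardiac stress median was -0.04.

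**Figure D5:**
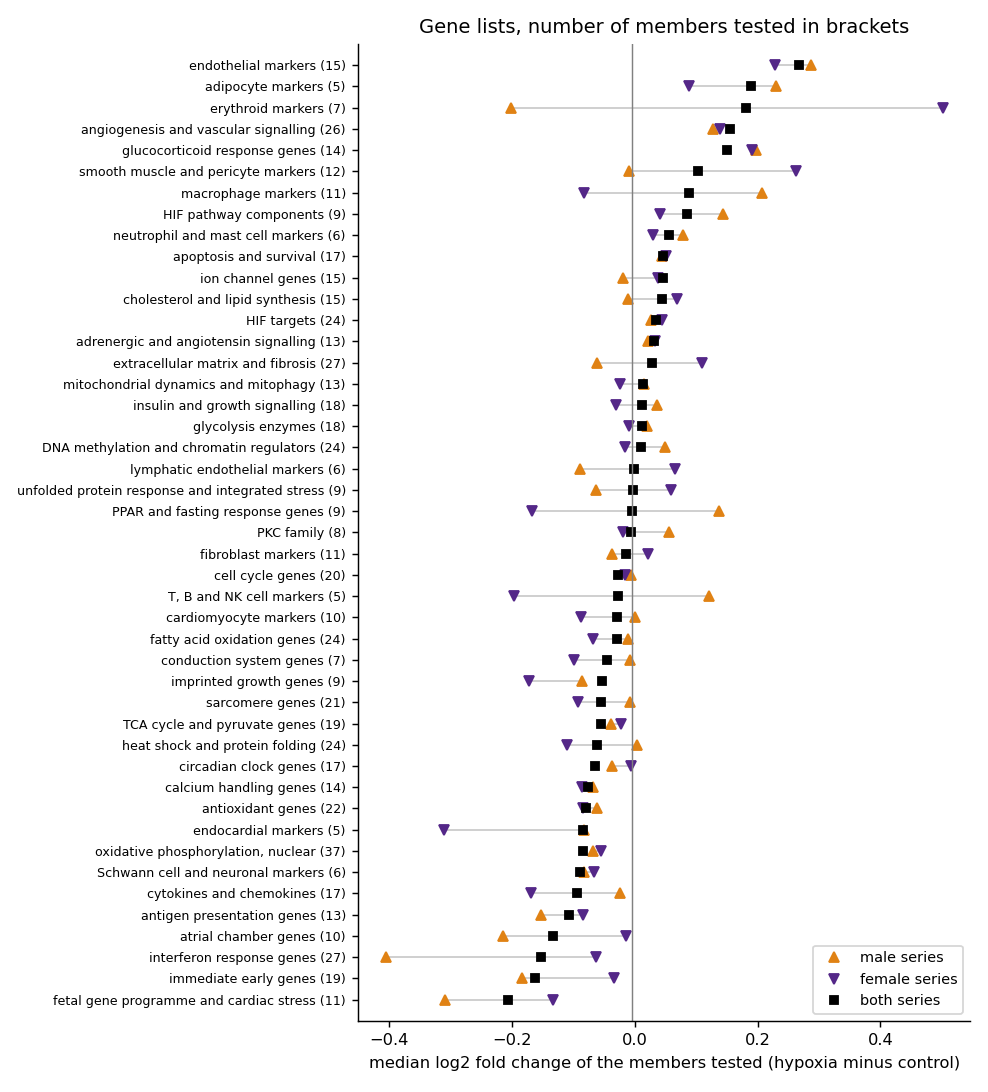
Median log2 fold change of hypoxia against control for each gene list with at least 5 members tested, over both series (square) and in each series (triangles), with the grey line at the median of all genes. Endothelial markers lie highest at 0.27 and the fetal programme and cardiac stress list lowest at -0.21 (-0.04 without male control 1, when it was not the lowest), and several lists such as erythroid markers have opposite signs in the 2 series.

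Other lists held few or no nominal genes. In antigen presentation 8 of 13 were negative, and RT1-CE7, a class I gene of the rat major histocompatibility complex with near-identical relatives and so an uncertain level, was nominally higher at 0.79. Heat shock and protein folding genes were negative in 17 of 24, with a median of 0.004 in males and -0.11 in females. Ion channel genes were positive in 9 of 15, with medians of -0.02 in males and 0.04 in females. Genes of cholesterol and lipid synthesis were positive in 10 of 15, with medians of -0.01 in males and 0.07 in females. None of these lists held a nominal gene. Markers of Schwann cells and neurons were negative in 5 of 6. Erythroid markers had a median of -0.20 in males and 0.50 in females.

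The difference between the series was tested for each gene and called 0 genes at an adjusted p under 0.3, with 388 at an unadjusted p under 0.05 and a smallest adjusted p of 0.85. The 3 genes with the smallest p of that difference, RGD1359634, Vamp5 and Best1, had opposite signs in males and females, such as 0.31 and -0.52 for Best1, a chloride channel.

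The median difference between hypoxia and control varied with the length of the genes. By the length that the ratio of scaled fragments to FPKM gives, the shortest quartile of the genes had a median of -0.04 with 40.3% positive, and the longest quartile a median of 0.01 with 55.1% positive. Nominally lower genes made up 2.61% of the shortest and 0.637% of the longest quartile. Genes of cytosolic ribosomal proteins, a family taken up after their values were seen, lie almost all in the shortest quartile (72 of 73), and 66 of 73 were negative with a median of -0.12 (-0.18 in males, -0.04 in females), 3 of them nominally lower. Of the 15 endothelial markers 2 were in the shortest and 6 in the longest quartile. The score of each library, the median deviation of the longest minus that of the shortest quartile, was -0.10 to 0.00 in male control, -0.07 to 0.12 in male hypoxia, -0.08 to 0.05 in female control and -0.03 to 0.20 in female hypoxia, so that the groups overlapped. No RNA quality per library was in the sources used here. The part of this balance in the endothelial values was examined only by the covariate, and its part in the ribosomal values was not tested. Over all genes 772 in place of 856 had an unadjusted p under 0.05 from limma with the covariate.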

How the data were processed

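RNA-seq libraries of the 20 adult rat hearts were made from total RNA by ribosomal RNA depletion (Ovation Universal RNAseq System) and sequenced in pairs. Trimmomatic 0.35 was used by the authors for trimming, TopHat2 2.1.1 for alignment to the Rnor6.0 build and Cufflinks 2.2.1 for gene levels, while no source used here names the version of Cuffdiff. Deposited FPKM values (fragments scaled by transcript length and library depth) cover 30044 genes. The other deposited adult values are a signal of whole numbers, fragments that the authors had scaled between libraries and rounded, so that no count test fits them, and their sums do not give the depth. The fetal tables were not used here.

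From FPKM, log2(FPKM + 1) was computed for genes with a mean of at least 1 FPKM over the 20 libraries and fitted with limma 3.58.1 in R 4.3.3, with a variance trend and series as a block. The pseudocount of 1 understates the change of low genes. Tests were two-sided, with Benjamini-Hochberg adjustment over all genes tested. Effects within each series and their difference came from a limma fit of 4 groups with 1 shared spread. Standard errors and 95% intervals are those of limma. Called genes had an adjusted p under 0.3, a fold change over 1.2 and the same sign in both series, and nominal at an unadjusted p under 0.05 with the same other criteria. Exact permutation within series used all 31752 arrangements. The script was tested on simulated data. Gene lists were described by counts and medians, with no set test.

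Named genes were the called genes, filled to 10 per direction by p with genes of the same sign in both series and a fold change over 1.2, except symbols beginning LOC, RGD, Mir or Snor, up to 2 same-sign members per list by p, Prkce and 13 genes of natriuretic peptides, myosin, calcium, hypoxia, DNA methylation and metabolism, and the 3 genes whose effects differed most between series. Members of a nominal count, all endothelial markers, and genes said to be named after their values were seen stand outside this rule, and 1 gene that it names is not reported here. The members and lists were chosen with earlier results of these data known. Of 49 lists, the 13 mitochondrially encoded symbols matched no row and were not analysed. Columns of the library labelled female control 3 were left out of the fit. Alternatives covered that library, the pseudocount, the filter, scaling, the variance trend, weights, the series term, the 6 receptor-rich libraries, each library in turn and the replicate number.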

Additional observations from a re-analysis of the deposited data

Results flagged for a closer look

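In groups of 4 or 5 hearts, 1 heart stood apart from the others by Dixon's criterion in 17 of 344 checks, where chance alone gives about 1 in 20. Male control 1 accounted for several. It held 7026 FPKM of Nppa (others 284 to 631), 2160 FPKM of Myh7 (others 3035 to 3251), 16.3 FPKM of Cfd (others 4.58 to 7.38) and 24.6 FPKM of Cdk4 (others 16.6 to 18.7). Nppa was also high in male hypoxia 4 at 2460 FPKM (others 160.1 to 511), and that library had the lowest sum of scaled fragments of its group at 7001850 (others 7424260 to 7513570). Female control 4 was high for Nppb at 1028 FPKM and Prf1 at 2.30 FPKM. Female hypoxia 2 was high for Srpx at 17.96 FPKM and the water channel Aqp1 at 179 FPKM. Male hypoxia 3 was high for Prkch at 16.0 FPKM and Ptprb at 53.4 FPKM. Female hypoxia 5 was low for Robo4 at 0.679 FPKM and high for Decr1 at 149 FPKM. Female control 5 was high for Inpp1 at 10.4 FPKM and low for RGD1359634 at 7.62 FPKM, and male control 3 was high for Nup43 at 11.4 FPKM.

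The library labelled female control 3, outside the comparison, held 3.82 FPKM of Kdm5d and 13.7 FPKM of Eif2s3y, both Y-linked, above all other libraries of the female series.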

How the results depend on the processing

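No gene was called under most alternatives. With female control 3 kept in the female series 10 were called (Asph, Dab2ip, LOC103693598, LOC103694352, LOC103694353, Mcf2l, P4ha2, Per2, Pxn and Srpx), and without the 6 receptor-rich libraries 2. Leaving out 1 library gave 0 to 5 calls, with 5 without female hypoxia 5, 4 without male control 1 and 1 each without male control 3 and male hypoxia 4, and 354 to 534 nominal genes in place of 426. A mean of at least 5 FPKM left 231 nominal genes. Endothelial markers nominally higher were 3 without the 6 libraries, 2 in females alone and 4 to 9 without 1 library, and the median of oxidative phosphorylation was 0.041 with the long-minus-short covariate. The replicate numbers did not pair the samples (2 of 9 pairs correlated over 0.1, range -0.18 to 0.21), and with the number as a replicate block 0 genes were called, with a smallest adjusted p of 0.618.

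Some single genes changed sign. RGD1359634, Vamp5 and Best1 had opposite signs in the 2 series, and so did Kdr, Emcn, Atp2a2, Dnmt1, Hif1a, Hk2 and Bnip3. Robo4, Vegfa and Myh6 had the same sign in both series and a log2 fold change near 0. The cause of the changes was not tested. With female control 3 kept in the female series the log2 fold change was 0.017 for Kdr, 0.044 for Atp2a2 and 0.13 for Myh6, and with it in the male block 0.0052 for Kdr, 0.012 for Atp2a2, 0.058 for Myh6 and -0.0041 for Dnmt1. The long-minus-short covariate gave 0.0039 for Kdr, 0.074 for Atp2a2, 0.027 for Myh6 and -0.064 for Dnmt1. Without the 6 libraries Hif1a was at 0.00065, Atp2a2 at 0.071, Myh6 at 0.071 and Dnmt1 at -0.072. Quantile normalisation gave 0.0067 for Emcn, 0.17 for Atp2a2 and 0.10 for Myh6, and array weights 0.037 for Atp2a2, 0.049 for Myh6 and -0.018 for Dnmt1. In males alone Kdr was at 0.060, Emcn at 0.13, Atp2a2 at 0.048, Bnip3 at -0.0020 and Best1 at 0.31, and in females alone Hif1a was at 0.0011, Dnmt1 at -0.073, Hk2 at -0.078, RGD1359634 at -0.13 and Vamp5 at 0.45. Leaving out 1 library gave -0.11 to 0.020 for Kdr, -0.11 to 0.021 for Emcn, -0.016 to 0.15 for Robo4, -0.015 to 0.12 for Vegfa, -0.068 to 0.052 for Atp2a2, -0.12 to 0.041 for Myh6, -0.032 to 0.052 for Dnmt1 and -0.0057 to 0.20 for Bnip3.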
